A study of Homo sapiens with 6 samples.

Results

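The NRF2 antioxidant genes described here are 9 of the 60748 genes in the deposited table: NFE2L2, KEAP1, NQO1, HMOX1, GCLC, GCLM, TXNRD1, SRXN1 and OSGIN1. They were taken from the table by gene symbol, with no measured value in the rule, although the list was chosen with earlier results of these data known. All 9 passed the filter on low counts that kept 18275 genes for testing. The RNA-seq data comprised 6 libraries in 2 groups of 3, all from LX-2 cells, a line that was derived from human hepatic stellate cells. The LX-2Vector cells carried an empty lentiviral vector and the LX-2FAP cells carried the same vector with fibroblast activation protein α (FAPα, gene symbol FAP), a cell surface serine protease of activated fibroblasts. Both groups were cultured for 24 h, and the labels name no further agent. Per the study's methods, both came from stable clones selected with puromycin, and the vector also encodes EGFP and has a ubiquitin promoter. How many clones make up each group is not stated there. A difference between the selected cells then cannot be told apart from an effect of FAP in these data. Nothing in the labels says that the 3 libraries of a group came from separate cultures, and the p-values then measure only the spread between these libraries, which may be technical.

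NRF2, encoded by NFE2L2, is a transcription factor that KEAP1 holds in the cytoplasm and hands to a ubiquitin ligase for degradation. Oxidants and electrophiles modify cysteines of KEAP1, NRF2 then escapes degradation and binds with small MAF proteins to antioxidant response elements near genes for glutathione synthesis, thioredoxin reduction, quinone reduction and heme breakdown. Since NRF2 is controlled largely through its protein, its mRNA is known to be an incomplete readout of its activity, and the mRNA of its targets is commonly measured beside it. In hepatic stellate cells, oxidants from injured liver are known to accompany activation, and NRF2 targets are part of the defence against them.

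The letters that antioxidant response elements share were looked for in the promoter windows of these genes, because NRF2 targets are known for carrying such elements. The choice by symbol did not use sequence directly. Since targets can be known because of such elements, their motif share is a description and not an independent check. The windows, from RefSeq on GRCh38.p14, ran from 250 bases before to 50 bases after each transcript start, and 8 of the 9 members had 1 or more. HMOX1 had none. The motifs TGACNNNGC and TGAGNNNGC were searched on both strands and differ from each other in 1 letter. TGACNNNGC was present for KEAP1, GCLM and TXNRD1, 3 of 8 members, against 16.1% of the 27305 genes with a window. TGAGNNNGC was present for 6 of 8 members against 21.6% of genes, and either motif was present for 6 of 8 against 33.7%. GCLC and SRXN1 had neither in these windows. The motifs were not particular to the members. In the pathway lists followed below, either motif was present for 15 of 22 glutathione genes with a window. It was present for 7 of 10 aldo-keto and detoxification genes and 4 of 8 thioredoxin and peroxiredoxin genes. The counts were 3 of 5 for NADPH supply and 2 of 3 for superoxide dismutases and catalase. They were 3 of 8 for NRF2 partners and regulators and 2 of 7 for heme and iron handling. The stretches below show 1 match for each of 5 members, in the direction of the gene's transcription, with the match in capitals. All 5 matches shown read on the opposite strand, but they were picked from a larger number. NFE2L2, not shown, had 2 matches, both on the same strand. KEAP1 had 3 matches in 1 window, GCLM had 2 and TXNRD1 had 2 in each of its windows. KEAP1 and TXNRD1 also had matches on the same strand.
GCLM, chr1:93909446-93909474, minus strand: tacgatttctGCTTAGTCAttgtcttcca
KEAP1, chr19:10502784-10502812, minus strand: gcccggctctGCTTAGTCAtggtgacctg
TXNRD1, chr12:104286920-104286948, plus strand: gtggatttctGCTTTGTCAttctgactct
OSGIN1, chr16:83953131-83953159, plus strand: acgggcccctGCTGACTCAcgcttatgaa
NQO1, chr16:69726661-69726689, minus strand: tcctggagctGCAGCCTCAgcatcctccg
GCLM and KEAP1 held the same 9 letters in capitals. The match began 34 bases before the start of GCLM, 31 before a start of KEAP1, 102 before a start of TXNRD1, 99 before the start of OSGIN1 and 119 before the start of NQO1. In GENCODE the OSGIN1 stretch lay in an intron, those of KEAP1, TXNRD1 and NQO1 lay in exons outside the coding sequence, and 11 bases of the GCLM stretch did. A match of letters is a description of the window and not a measured site of binding.

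The libraries held between 17355700 and 26352060 counted reads. FAP, the forced gene, had 49, 42 and 55 counts in the 3 LX-2Vector libraries and 14864, 15160 and 14805 in the 3 LX-2FAP libraries, a log2 fold change of 8.33 (SE 0.13), so each library's FAP level followed its label. Among stellate cell markers, vimentin (VIM) had a mean of 312.1 FPKM over all libraries and TIMP1 had 133.2 FPKM, whereas desmin (DES), PDGFRA, DCN and COL1A2 lay near 0, with means of 0.0122, 0.0467, 0.0938 and 0.103 FPKM. The summed level of the 10 stellate markers was 469.7 to 488.9 FPKM in LX-2Vector and 486.7 to 500.9 FPKM in LX-2FAP. VIM and TIMP1 made up most of this sum, so it says little of the other markers. Of the 10, 8 were tested, and 6 of these had a negative and 2 a positive difference. Their median log2 fold change was -0.37, beside -0.013 over all tested genes. VIM was called higher and COL1A1, COL3A1 and PDGFRB were called lower in LX-2FAP, 4 of 8 beside 5.29% of all tested genes. ACTA2, another of the markers, had a log2 fold change of -0.36 with groups that did not overlap, but did not pass (adjusted p = 0.145 by edgeR). Summed levels of hepatocyte, endothelial, leukocyte and epithelial markers were at most 3.08 FPKM in any library, and among them the endothelial VWF was called lower, at 0.239 FPKM in LX-2Vector and 0.111 FPKM in LX-2FAP (log2 fold change -1.06, adjusted p = 0.0268 by edgeR). The part of these markers in the results below was not tested. Along the first principal component, which held 36.2% of the variance, LX-2FAP replicate 1 (1.91) lay nearest to the LX-2Vector libraries (-20.7 to -11.6), and the other LX-2FAP libraries lay at 25.4 and 17. In bulk RNA, fewer cells expressing a gene and less RNA per cell cannot be told apart.

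Of the 9 NRF2 genes, 3 rose in LX-2FAP, none fell and 6 did not pass the test. A gene was called where the Benjamini-Hochberg adjusted p of edgeR's quasi-likelihood test over the 18275 tested genes was under 0.05. GCLM rose 1.22-fold, TXNRD1 rose 1.17-fold and NQO1 rose 1.15-fold. These are the genes for the modifier subunit of the enzyme that starts glutathione synthesis, for thioredoxin reductase 1 and for an NAD(P)H quinone reductase. The transcripts of NRF2 and KEAP1 did not pass. The same 3 genes were those with an unadjusted p under 0.05, which 22.2% of all tested genes had. Over all tested genes 5.29% were called, 2.57% as higher and 2.73% as lower, so 3 higher of 9 stands beside a background of 2.57%. Since the 9 were chosen with earlier results of these data known, that comparison is only a description. The split of all calls was 469 higher and 498 lower, but 239 and 809 with scaling by library size alone and 614 and 407 with DESeq2. The median log2 fold change of the 9 genes was 0.032, beside -0.013 over all tested genes.

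The calls of the members depended on single libraries, as did those of all genes. When LX-2FAP replicate 2 was left out, edgeR called none of the 9 and 0.687% of all genes. In that fit 3 members and 2924 of the 18765 tested genes had an unadjusted p under 0.05. Leaving out LX-2FAP replicate 3 gave the same counts of members, beside 0.138% of all genes called and 2673 of 18822 at an unadjusted p under 0.05. The fit lacking LX-2FAP replicate 1 called 3 members beside 10.4%. Leaving out LX-2Vector replicate 1, 2 or 3 gave 1, 2 and 1 members beside 2.09%, 3.54% and 2.12%. Limma on the FPKM values called no member and 0.0109% of all genes at either pseudocount. With limma 3 members had an unadjusted p under 0.05, beside 3662 of 18275 genes at pseudocount 1 and 3638 at 0.1. DESeq2 called 2 members beside 5.59%, scaling by library size alone 2 beside 5.73%, DESeq2 size factors 3 beside 5.76%, no filter on low counts 3 beside 3.9%, a minimum of 10 counts in every library 3 beside 6.32%, and a replicate block 3 beside 5.34%.

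**Figure D1:**
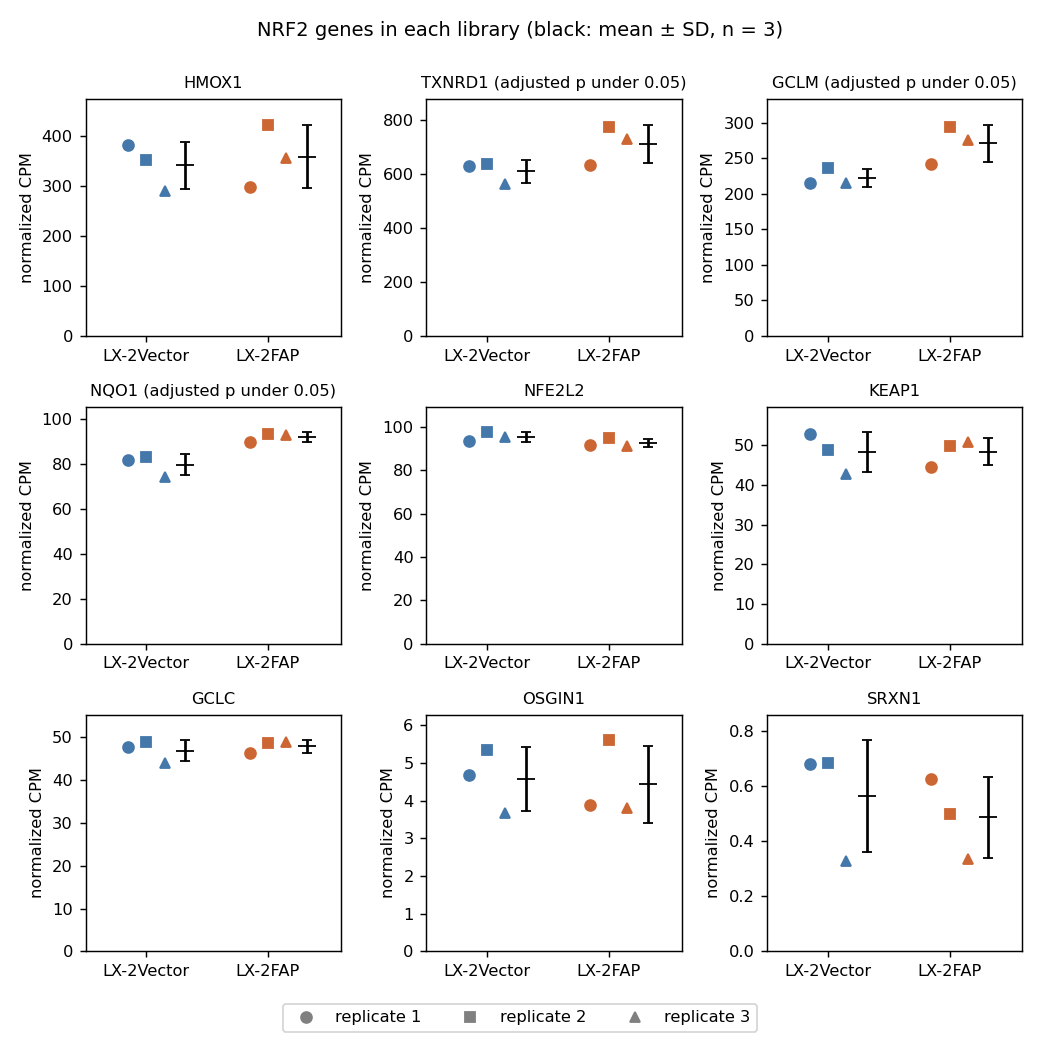
Normalized counts-per-million of each of the 9 genes in each library, with LX-2Vector in blue and LX-2FAP in orange, a marker shape per replicate number and the mean ± SD (n = 3) in black. The 3 LX-2FAP libraries lie above all LX-2Vector libraries for GCLM and NQO1, while for TXNRD1 LX-2FAP replicate 1 (636 CPM) lies below LX-2Vector replicate 2 (639.2 CPM).

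The regulators were measured first. NFE2L2 (ENSG00000116044, chr2:177227595-177392697 on GRCh38), which encodes NRF2, was at 93.3, 97.6 and 95.3 normalized counts-per-million (CPM) in LX-2Vector and 91.7, 94.96 and 91.3 CPM in LX-2FAP. The groups overlapped within a narrow band, with means of 95.4 ± 2.13 and 92.6 ± 2.01 CPM (SD, n = 3). The log2 fold change was -0.041 (SE 0.043, adjusted p = 0.631 by edgeR), and its 95% interval in fold ran from 0.912 to 1.04. Of its exon bases, 17.6% are shared with AC019080.1 on the same strand.

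KEAP1 (ENSG00000079999, chr19:10486120-10503741), the adaptor that presents NRF2 for degradation, was at 53.0, 48.8 and 42.9 CPM in LX-2Vector and 44.5, 49.8 and 50.7 CPM in LX-2FAP. The ranges lay over each other and the means, 48.2 ± 5.07 and 48.4 ± 3.36 CPM (SD, n = 3), differed by less than the spread. The adjusted p was 0.996 by edgeR and the 95% interval in fold was 0.898 to 1.11. The sign of its difference changed with the scaling.

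Glutathione is made from cysteine and glutamate in a first step that needs a catalytic subunit, GCLC, and a modifier subunit, GCLM. GCLM (ENSG00000023909, chr1:93885205-93909456) was at 215.9, 236.3 and 215.1 CPM in LX-2Vector and 242.6, 294.8 and 275.9 CPM in LX-2FAP. Every LX-2FAP library was above every LX-2Vector library, the lowest by a few CPM, while 26.4% of all tested genes had groups that did not overlap and 13% did so with LX-2FAP higher. The means were 222.4 ± 12.0 and 271.1 ± 26.4 CPM (SD, n = 3), with a log2 fold change of 0.29 (SE 0.06, adjusted p = 0.0165 by edgeR) and a 95% interval in fold of 1.116 to 1.331. The call was lost, with the direction unchanged, when LX-2Vector replicate 1 (adjusted p = 0.0626) or LX-2FAP replicate 2 (0.0817) or 3 (0.108) was left out, and with limma on log2(FPKM + 1) (0.14).

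GCLC (ENSG00000001084, chr6:53497341-53616970) was at 47.7, 48.8 and 44.1 CPM in LX-2Vector and 46.2, 48.6 and 48.9 CPM in LX-2FAP. Its groups overlapped, the log2 fold change was 0.032 (SE 0.055, adjusted p = 0.791 by edgeR), and the 95% interval in fold was 0.943 to 1.11. The intervals of the 2 subunits did not overlap, but by a narrow margin (upper end 1.109 for GCLC, lower end 1.116 for GCLM). The ratio of GCLM to GCLC in FPKM, a pair chosen after their values were seen, was 7.2, 7.69 and 7.75 in LX-2Vector and 8.34, 9.63 and 8.97 in LX-2FAP. Every LX-2FAP ratio was above every LX-2Vector ratio, with means of 7.55 ± 0.304 and 8.98 ± 0.644 (SD, n = 3) and a 2-sided exact permutation p of 0.1, which is the smallest that 3 libraries against 3 can give. Since GCLM alone already had groups that did not overlap and GCLC changed little, the ratio largely restates the values of GCLM.

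TXNRD1 (ENSG00000198431, chr12:104215779-104350305), the cytosolic selenoenzyme that uses NADPH to reduce thioredoxin, was at 629.6, 639.2 and 563.1 CPM in LX-2Vector and 636, 774.6 and 730.0 CPM in LX-2FAP. LX-2FAP replicates 2 and 3 stood above the controls and replicate 1 lay among them. The means were 610.7 ± 41.4 and 713.5 ± 70.8 CPM (SD, n = 3), with a log2 fold change of 0.22 (SE 0.06, adjusted p = 0.0471 by edgeR) and a 95% interval in fold of 1.07 to 1.28. Of the 3 calls this lay nearest the threshold. It was lost with scaling by library size alone (adjusted p = 0.0677), with DESeq2 (0.129), with limma (0.23 on log2(FPKM + 1)) and without any 1 library other than LX-2FAP replicate 1 (0.052 to 0.21), and the direction was unchanged throughout.

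SRXN1 (ENSG00000271303, chr20:646615-653370), which encodes sulfiredoxin, the enzyme that restores overoxidized peroxiredoxins, had 18, 12 and 7 counts in LX-2Vector and 15, 9 and 7 in LX-2FAP. These counts lay close to the filter and the groups overlapped. The log2 fold change of -0.20 (SE 0.36, adjusted p = 0.802 by edgeR) had a 95% interval in fold of 0.51 to 1.49. A difference of the size seen for GCLM thus could not be told from none at these counts, and the cause of the low counts was not tested. Of its exon bases, 85% lie on the same strand in AL121758.1, and how reads on shared bases were assigned is not given in the sources used here, so the level of SRXN1 is uncertain.

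NQO1 (ENSG00000181019, chr16:69706996-69726951), the cytosolic enzyme that reduces quinones by 2 electrons at a time, was at 82.0, 83.1 and 74.5 CPM in LX-2Vector and 89.8, 93.7 and 93.1 CPM in LX-2FAP. The groups did not overlap, and the LX-2FAP libraries lay close together. The means were 79.9 ± 4.71 and 92.2 ± 2.09 CPM (SD, n = 3), with a log2 fold change of 0.21 (SE 0.05, adjusted p = 0.0284 by edgeR) and a 95% interval in fold of 1.07 to 1.24. The call was lost, with the direction unchanged, when LX-2Vector replicate 3 (adjusted p = 0.0935) or LX-2FAP replicate 2 (0.116) or 3 (0.159) was left out, and with limma on log2(FPKM + 1) (0.128). AC092115.2 on the other strand covers 17.7% of the exon bases of NQO1, and reads of the pair could not be separated if counting ignored strand, which the sources used here do not give.

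HMOX1 (ENSG00000100292, chr22:35380361-35394214), the inducible enzyme that opens the heme ring, was at 383.7, 352.4 and 290.5 CPM in LX-2Vector and 297.9, 423.6 and 356.1 CPM in LX-2FAP. The lowest and highest LX-2FAP libraries spanned almost the whole range of both groups. The means were 342.2 ± 47.4 and 359.2 ± 62.9 CPM (SD, n = 3), the log2 fold change was 0.068 (SE 0.10, adjusted p = 0.754 by edgeR) and the 95% interval in fold was 0.903 to 1.216. That interval contains the fold changes found for TXNRD1 and NQO1, and that of GCLM lies at its upper end, just outside. Whether HMOX1 differed from these genes was not tested.

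OSGIN1 (ENSG00000140961, chr16:83948282-83966332), an oxidative stress-induced growth inhibitor, was at 4.69, 5.36 and 3.67 CPM in LX-2Vector and 3.88, 5.62 and 3.82 CPM in LX-2FAP. The groups overlapped, with a log2 fold change of -0.053 (SE 0.17, adjusted p = 0.895 by edgeR) and a 95% interval in fold of 0.751 to 1.24. Of its exon bases, 13.9% are shared with AC009119.2 on the same strand.

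**Figure D2:**
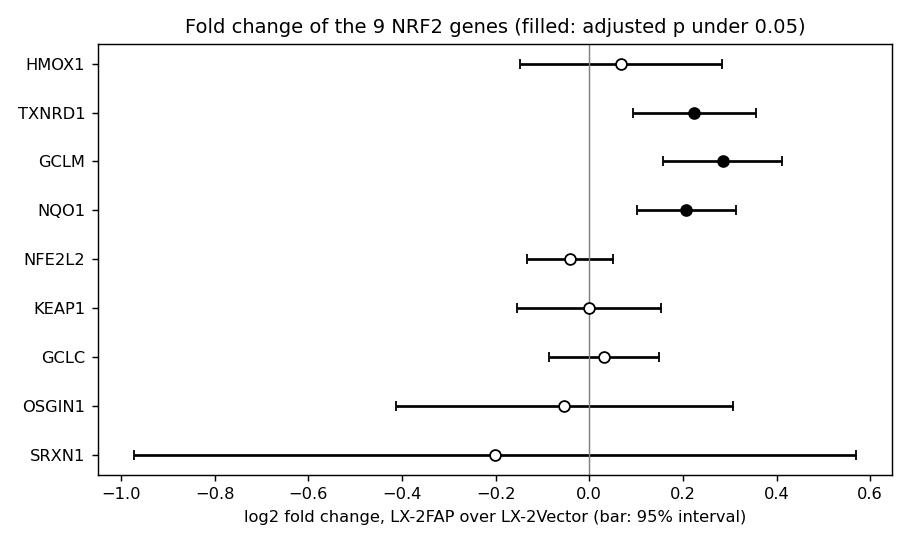
Log2 fold change of LX-2FAP over LX-2Vector for each of the 9 genes, with its 95% interval as a bar and filled points for an edgeR adjusted p under 0.05. GCLM (0.29), TXNRD1 (0.22) and NQO1 (0.21) have intervals above 0, and the interval of SRXN1, the gene with the fewest counts, is the widest.

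Compared per length, the 9 genes spanned a wide range of levels, and their order was the same in both groups. In LX-2Vector the mean level was 149.5 ± 20.3 FPKM (fragments scaled to gene length and library size) for HMOX1, 91.7 ± 6.15 for TXNRD1, 41.3 ± 2.35 for GCLM, 27.1 ± 1.58 for NQO1 and 16.9 ± 0.45 for NFE2L2. Below these stood KEAP1 at 13.6 ± 1.39 FPKM, GCLC at 5.48 ± 0.29, OSGIN1 at 0.829 ± 0.155 and SRXN1 at 0.225 ± 0.0811 (SD, n = 3 for each). In LX-2FAP the levels were 153.9 FPKM for HMOX1, 105.0 for TXNRD1, 49.4 for GCLM, 30.7 for NQO1, 16.1 for NFE2L2, 13.4 for KEAP1, 5.49 for GCLC, 0.789 for OSGIN1 and 0.19 for SRXN1. No 2 neighbours in this order overlapped between libraries within either group. By mean FPKM over all libraries, HMOX1 stood at percentile 99.3 of the tested genes, TXNRD1 at 98.6, GCLM at 95.7 and NQO1 at 92.1, whereas GCLC stood at 60.6, OSGIN1 at 24.3 and SRXN1 at 6.24. The place of SRXN1 is uncertain, since 85% of its exon bases are shared with AL121758.1 on the same strand. The modifier subunit of glutamate-cysteine ligase was thus listed at a several times higher transcript level than its catalytic subunit in every library. The size of that ratio depends on the gene lengths behind the FPKM values, 5426 bases for GCLM and 8618 for GCLC. Without scaling to length, the means in LX-2Vector were 222.4 and 46.85 CPM. For OSGIN1 the length was 5558 bases against 3460 merged exon bases in GENCODE, so its FPKM level is uncertain too.

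**Figure D3:**
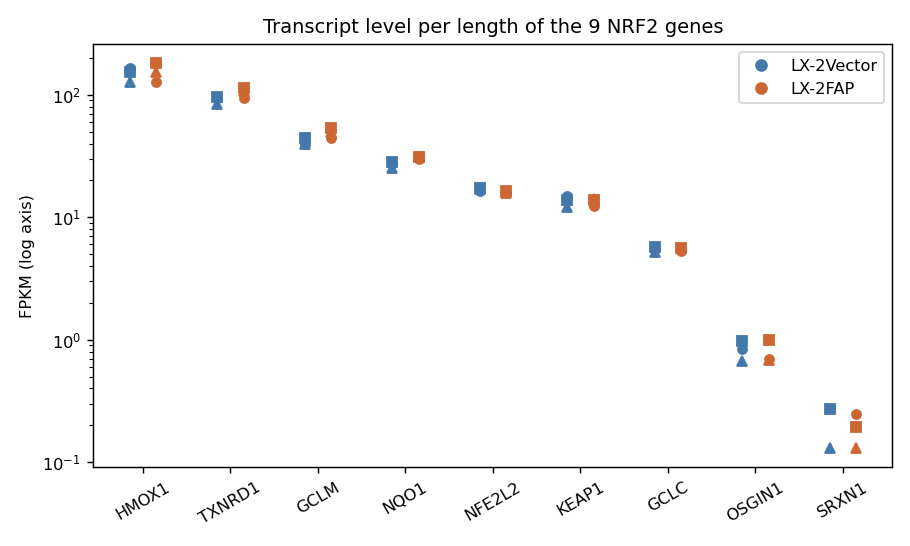
FPKM of the 9 genes in each library on a log axis, ordered by mean level, with LX-2Vector in blue and LX-2FAP in orange and circles, squares and triangles for replicates 1, 2 and 3. The order from HMOX1 (149.5 and 153.9 FPKM) down to SRXN1 (0.225 and 0.19 FPKM) is the same in both groups, although the level of SRXN1 is uncertain.

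The wider pathway was followed in 7 lists that hold 80 other genes. Of these, 75 were tested, and 8 were called, 4 higher and 4 lower in LX-2FAP. Of the 75, 36 had a positive and 39 a negative difference, with a median log2 fold change of -0.0063, beside -0.013 over all tested genes. Calls by edgeR thus made up 8 of 75 genes against a background of 5.29%, and they were split evenly between the directions. These lists too were chosen with earlier results of these data known. Leaving out LX-2FAP replicate 3 left 0 pathway genes called by edgeR. In that fit 16 pathway genes had an unadjusted p under 0.05, beside 2673 of all 18822 tested genes. Leaving out LX-2FAP replicate 2 left SOD2 alone called. Without LX-2Vector replicate 1 the count was 4, with GPX4, GSTM2, TXN and AKR1C1 lost, and without LX-2FAP replicate 1 it was 15. GSTM2 was also lost without LX-2Vector replicate 2 or 3, and TXN and AKR1C1 without LX-2Vector replicate 3. Limma on the FPKM values called 0 pathway genes. With limma 19 had an unadjusted p under 0.05, beside 3662 of 18275 genes at pseudocount 1 and 3638 at 0.1.

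None of the 10 NRF2 partners and regulators was called by edgeR, and none had an unadjusted p under 0.05, beside 5.29% and 22.2% of all tested genes. This list holds the small MAF proteins, the repressor BACH1 and the ubiquitin ligase parts CUL3 and RBX1. SQSTM1, the autophagy receptor that competes for KEAP1, had the highest level and was at 68.8 ± 5.38 FPKM in LX-2Vector and 72.2 ± 5.50 in LX-2FAP (SD, n = 3), with an adjusted p of 0.351 by edgeR. MRNIP and MGAT4B on the other strand cover 22% of the exon bases of SQSTM1, so its reads are uncertain. NFE2L1, a related transcription factor, was at 46.4 ± 2.09 and 43.4 ± 0.0474 FPKM (adjusted p = 0.359 by edgeR).

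Of 28 genes of glutathione synthesis and use, 25 were tested, 1 rose, 3 fell and 21 did not pass. GSTO1, an omega-class glutathione transferase, was at 103.5, 114.1 and 99.3 FPKM in LX-2Vector and 115.6, 131.0 and 130.5 in LX-2FAP, a log2 fold change of 0.28 (SE 0.06, adjusted p = 0.0141 by edgeR) with groups that did not overlap. GPX4, the glutathione peroxidase that reduces lipid hydroperoxides in membranes, went the other way, at 28.4, 23.2 and 26.6 FPKM in LX-2Vector and 21.7, 19.6 and 20.5 in LX-2FAP, a log2 fold change of -0.32 (SE 0.07, adjusted p = 0.0197 by edgeR), again without overlap. ABCC3, an exporter of organic anion conjugates, fell from 1.37 ± 0.193 to 0.888 ± 0.117 FPKM (SD, n = 3), with adjusted p = 0.0122 by edgeR and a log2 fold change of -0.59 (SE 0.12). GSTM2, a mu-class transferase, fell from 1.65 ± 0.0585 to 1.27 ± 0.167 FPKM (adjusted p = 0.0473 by edgeR), and 14.2% of its 75-base words occur in transcripts of other genes, so its reads are uncertain. Its call was also lost with DESeq2 (adjusted p = 0.0514) and was kept in 6 of the 14 alternatives. Neither GSTP1, at 132.2 ± 10.2 and 128.1 ± 0.927 FPKM (adjusted p = 0.876 by edgeR), nor SLC7A11, the cystine importer (log2 fold change 0.16, adjusted p = 0.204), passed. GPX7, GSTM1 and GSTA1 were under the filter. The gastrointestinal glutathione peroxidase GPX2, singled out after its values were seen, had 34, 28 and 14 counts in LX-2Vector and 9, 12 and 11 in LX-2FAP, with an adjusted p of 0.0544 by edgeR.

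Of 11 thioredoxin and peroxiredoxin genes, 1 rose and 10 did not pass. TXN, the substrate of thioredoxin reductase, was at 228.0, 238.1 and 211.2 FPKM in LX-2Vector and 236.1, 262.7 and 258.7 in LX-2FAP, a log2 fold change of 0.19 (SE 0.05, adjusted p = 0.0442 by edgeR). In FPKM, LX-2FAP replicate 1 lay below the highest control, whereas in normalized CPM it lay above it (240.7 against 237.8) and the groups did not overlap. The TXN call was lost with scaling by library size alone (adjusted p = 0.0719) and without LX-2Vector replicate 1 (0.0794) or 3 (0.136) or LX-2FAP replicate 2 or 3. PRDX1, the most abundant peroxiredoxin transcript here, was at 161.4 ± 10.8 and 178.2 ± 10.9 FPKM (adjusted p = 0.0696 by edgeR). MMACHC on the other strand covers 24.9% of the exon bases of PRDX1, so its reads are uncertain.

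Of the 6 genes that supply NADPH, the electron donor of both systems, none was called by edgeR and none had an unadjusted p under 0.05, beside the same 5.29% and 22.2%. PGD, a dehydrogenase of the pentose phosphate pathway, was at 50.04 ± 1.71 FPKM in LX-2Vector and 48.3 ± 0.526 FPKM in LX-2FAP (SD, n = 3, adjusted p = 0.80 by edgeR).

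Of 13 aldo-keto and carbonyl reductases and other detoxifying enzymes, 11 were tested, 1 rose and 10 did not pass. AKR1C1, a hydroxysteroid and carbonyl reductase, was at 7.19, 7.88 and 7.20 FPKM in LX-2Vector and 8.05, 8.72 and 8.66 in LX-2FAP, a log2 fold change of 0.22 (SE 0.05, adjusted p = 0.0269 by edgeR). Since 21.9% of its 75-base words occur in AKR1C2, AKR1C3 or AKR1C4, its reads are uncertain, and AKR1C2 and AKR1C3 had log2 fold changes of -0.26 and -0.27 that did not pass (adjusted p = 0.213 and 0.229). AKR1B10, singled out after its values were seen, had 73, 83 and 6 counts in LX-2Vector and 7, 11 and 19 in LX-2FAP, so that LX-2Vector replicate 3 lay below all LX-2FAP libraries. Its log2 fold change of -2.08 (SE 0.62) did not pass (adjusted p = 0.0608 by edgeR). AKR1B1 and PTGR1, the most abundant genes of the list, had adjusted p-values of 0.703 and 0.956 by edgeR.

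Of 8 genes of heme and iron handling, 1 rose and 7 did not pass. TFRC, the transferrin receptor that brings iron into the cell, was at 40.4, 41.8 and 38.7 FPKM in LX-2Vector and 44.8, 45.4 and 46.8 in LX-2FAP, a log2 fold change of 0.21 (SE 0.04, adjusted p = 0.0122 by edgeR) with groups that did not overlap. The ferritin subunits that store iron did not pass, with FTL at 1652.2 ± 125.8 and 1716.0 ± 64.3 FPKM (adjusted p = 0.355 by edgeR) and FTH1 at 401.4 ± 67.2 and 398.0 ± 27.6 FPKM (adjusted p = 0.946). BEST1 on the other strand covers 62.4% of the exon bases of FTH1, so its reads are uncertain.

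Of the superoxide dismutases and catalase, 4 genes, 1 fell and 3 did not pass. SOD2, the mitochondrial manganese enzyme, which is known to be induced by NF-κB as well as by oxidants, was at 24.8, 27.5 and 32.5 FPKM in LX-2Vector and 23.0, 18.0 and 19.2 in LX-2FAP. The groups did not overlap, and the log2 fold change was -0.46 (SE 0.09, adjusted p = 0.00957 by edgeR). Another GENCODE entry of the same name shares 5.12% of the exon bases of SOD2 on the same strand. The cytosolic SOD1 was at 94.3 ± 7.49 and 99.5 ± 5.88 FPKM (adjusted p = 0.303 by edgeR). Thus within the pathway the transcripts of SOD2, GPX4, GSTM2 and ABCC3 fell while those of GSTO1, TXN, AKR1C1 and TFRC rose, beside the rise of GCLM, TXNRD1 and NQO1.

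**Figure D4:**
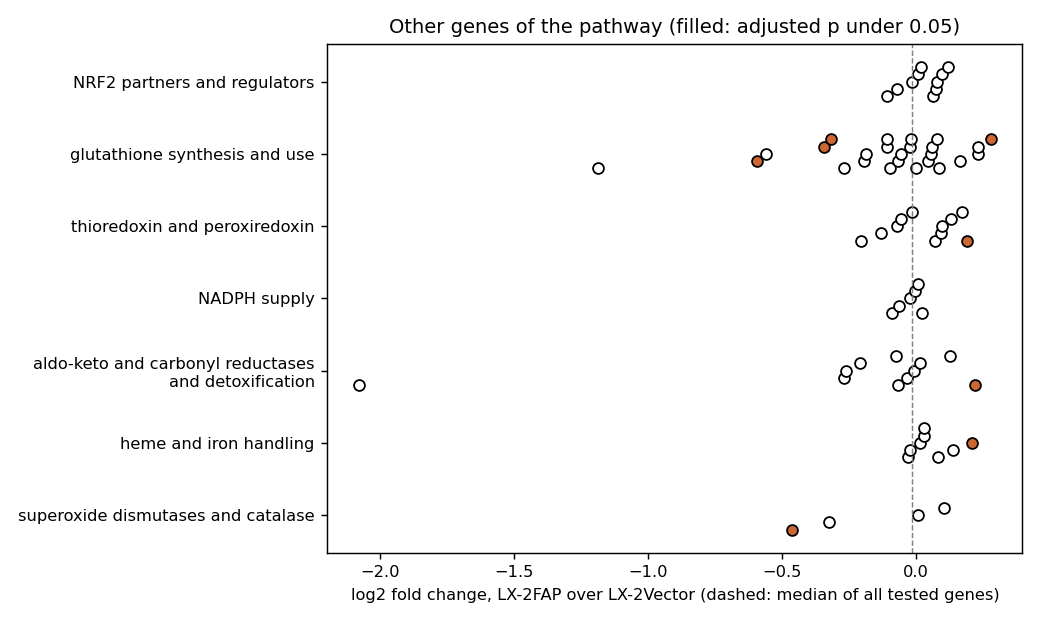
Log2 fold change of LX-2FAP over LX-2Vector for the 75 tested genes of the 7 pathway lists, 1 point per gene, filled for an edgeR adjusted p under 0.05, with the median of all tested genes (-0.013) as a dashed line. The 8 filled points lie 4 on each side, and the leftmost open points are AKR1B10 (-2.08) and GPX2 (-1.19).

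**Figure D5:**
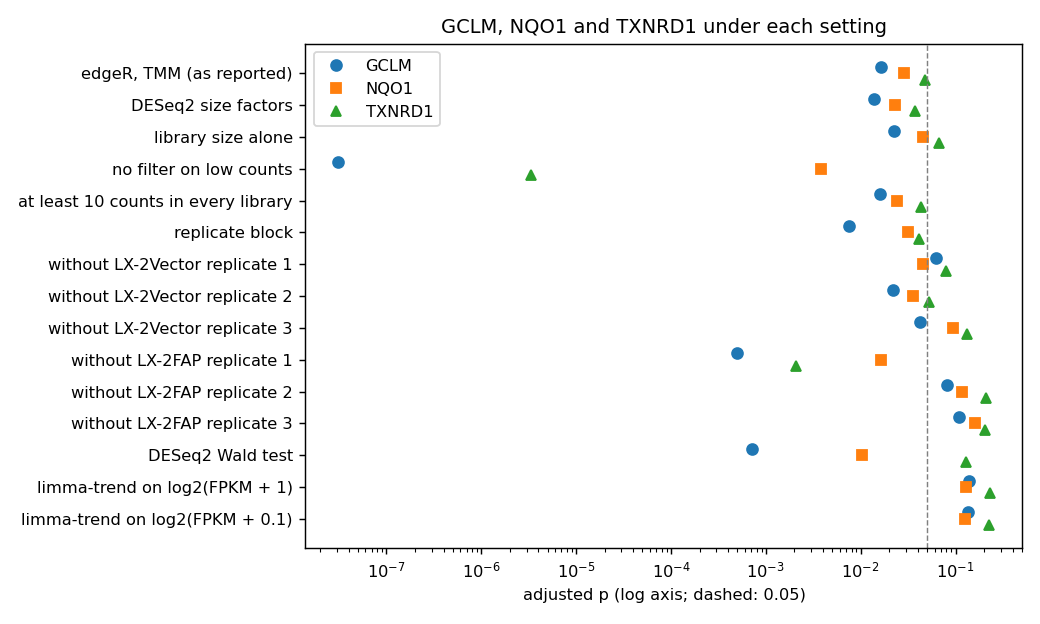
Adjusted p of GCLM, NQO1 and TXNRD1 under the reported fit and each of the 14 alternatives, on a log axis with the threshold of 0.05 dashed. GCLM and NQO1 each lie left of the threshold in 9 of the 14 alternatives and TXNRD1 in 5.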

How the data were processed

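RNA-seq libraries of LX-2Vector and LX-2FAP cells were grouped by sample title. The authors deposited gene counts, whole numbers that were not normalized, and FPKM values that they computed from gene length and count. Processing notes of the submitters name HISAT2 2.0.5, featureCounts 1.5.0-p3, DESeq2 1.16.1, edgeR and the build hg18. The table carries Ensembl identifiers, of which 58337 were in GENCODE release 29 (GRCh38), the source of the coordinates here. Neither the annotation release nor whether counting used strand was given in the sources used here. The labels name ribosomal RNA depletion and the study's methods also a poly(A) step, so the RNA classes kept are not settled. 

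The counts were tested with edgeR 4.0.16 (R 4.3.3, quasi-likelihood, TMM, default expression filter, minimum count of 10), LX-2FAP against LX-2Vector with no covariate, 2-sided. FPKM values were used for levels and, as log2(FPKM + 1) or log2(FPKM + 0.1), for limma 3.58.1. Other alternatives were DESeq2 1.42.0, its size factors, library size alone, other filters, a replicate block and each library left out. Intervals of folds are at 95% and come from the edgeR fit. Library totals were 17355700 to 26352060, and SRXN1 was the one member with fewer than 20 counts in every library. In simulated counts for 17982 genes with this design, 58% of 1.2-fold and 100% of 1.5-fold changes were recovered, with false calls at 6.77%. The changed genes were drawn only from those above a minimum mean CPM, which SRXN1 and OSGIN1 did not reach. No outlying library was simulated, so these rates do not cover the dependence of the calls on single libraries.

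The member genes and the lists were chosen with earlier results of these data known. Named genes are the members, FAP, in each pathway list every called gene and the 2 with the highest mean FPKM, called genes of the comparison lists, and for NQO1 and HMOX1 the 3 genes, of those averaging 100 counts or more, whose centred log2 CPM was nearest. Of the genes this rule names, 1 is not reported here. Others named were chosen after their values were seen.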

Additional observations from a re-analysis of the deposited data

How the results depend on the processing

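The directions of GCLM, NQO1 and TXNRD1 were kept under all 14 alternatives. With 1 library left out, the genes called ranged from 26 to 1949 (14 to 892 higher, 12 to 1057 lower), the NRF2 members called from 0 to 3 and the pathway genes called from 0 to 15. The lowest counts came without LX-2FAP replicate 3 and the highest without LX-2FAP replicate 1, and the cause was not tested. With no filter on low counts, 1606 genes were called, 929 of them lower, and 16 pathway genes. With library size alone 239 genes were called higher and 809 lower. With limma on FPKM at either pseudocount 2 genes were called, 1 in each direction, with 0 members and 0 pathway genes. An unadjusted p under 0.05 was found for 3 members and 19 pathway genes, beside 3662 or 3638 of 18275 genes. Differences that did not pass changed sign when 1 library was left out: GCLC from -0.00256 to 0.0678, HMOX1 from -0.0657 to 0.19 (-0.0309 without LX-2Vector replicate 3), KEAP1 from -0.073 to 0.0788 (0.0137 without LX-2Vector replicate 2, 0.0594 without LX-2FAP replicate 1), OSGIN1 from -0.24 to 0.0642 (0.0404 and 0.04 without LX-2FAP replicates 1 and 3) and SRXN1 from -0.46 to 0.0127 (0.00505 without LX-2Vector replicate 1), in log2. KEAP1 was at 0.00592 with DESeq2 size factors, 0.00042 with at least 10 counts in every library, 0.0079 with DESeq2 and 0.000894 with the replicate block. SRXN1 had no value under DESeq2's adjusted p or the filter on every library.

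Deviations of same-numbered libraries from their group means correlated at -0.0389, 0.0436 and -0.00962, and no library correlated best with its own number. The labels do not say whether same-numbered libraries were handled together, and these few correlations cannot settle it. With the replicate block 975 genes, 3 members and 9 pathway genes were called.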

Other observations

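Lists of other stress responses were set beside the NRF2 genes. Of 10 genes of the ATF4 and unfolded protein responses, 1 was called by edgeR, beside 5.29% of all tested genes. HSPA5, the chaperone BiP of the endoplasmic reticulum, was at 69.3, 70.2 and 69.8 FPKM in LX-2Vector and 77.6, 84.1 and 79.5 in LX-2FAP, a log2 fold change of 0.23 (SE 0.04, adjusted p = 0.00765 by edgeR), with groups that did not overlap. ATF4 itself had a log2 fold change of 0.044 (adjusted p = 0.672 by edgeR). Of 12 genes of the metallothionein list, which includes the regulator MTF1, 6 were tested and 1 was called by edgeR. MT2A, a metal-binding protein, was at 150.2, 184.7 and 173.6 FPKM in LX-2Vector and 201.2, 192.6 and 199.7 in LX-2FAP, a log2 fold change of 0.25 (SE 0.06, adjusted p = 0.022 by edgeR). The lowest LX-2FAP library was above the highest LX-2Vector library for MT2A too.

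Among the 11556 tested genes that averaged 100 counts or more, those nearest to NQO1 in centred log2 CPM over the 6 libraries were SETDB2, CHAC2 and TATDN3, with root mean square differences of 0.0167, 0.0202 and 0.021, where the spread of NQO1 itself was 0.117. None of the 3 was called by edgeR (adjusted p = 0.106, 0.119 and 0.101). Those nearest to HMOX1 were NR4A3, JOSD2 and BRF2, at 0.0357, 0.0466 and 0.0466, where the spread of HMOX1 was 0.191. The likeness rests on 6 values per gene, and shared function was not tested.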
